A study of Mus musculus with 4 samples.

Results

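The 10 genes described here are known to be induced by low oxygen and are not enzymes of glycolysis. They are Bnip3, Bnip3l, Ankrd37, Vegfa, Car9, Ndrg1, P4ha1, Egln3, Ddit4 and Adm, followed across 4 arrays. They were taken by name, through every probe whose RefSeq accession belongs to one of them, which gave 16 probes for 10 of the 23462 genes named on the array. Of the 10 genes, 6 had a single probe and 4 had several, and each probe was 1 spot. They were chosen by name but selected on Cdh1 minus control differences already known from these arrays, so those differences are given below as a description, without a test for single genes. The comparison of the culture sets was not used to choose them.

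The cells were B16-F10, a pigmented mouse melanoma line. One group was cultured for 24 h with recombinant Cdh1 at 100 ng/mL and the control group for 24 h without it, and the line was maintained in medium with 10% fetal bovine serum. Cdh1 is the mouse gene symbol of the adhesion protein E-cadherin. The labels give the name alone, with no form of the protein, oxygen level or cell density. There were 2 independent culture sets, each with 1 control and 1 Cdh1 culture, so every group had n = 2 and all results concern 1 cell line.

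When oxygen is scarce, the prolyl hydroxylases that mark the alpha subunits of hypoxia-inducible factor (HIF) for degradation slow down, and the stabilised subunits bind with Arnt to short hypoxia response elements near their target genes. The targets outside glycolysis serve mitophagy (Bnip3, Bnip3l), blood vessel growth and tone (Vegfa, Adm), pH control (Car9), collagen hydroxylation (P4ha1), restraint of mTORC1 (Ddit4) and feedback on HIF itself (Egln3). In melanoma, as in other solid tumours, such genes are widely used to read out the hypoxia response.

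Signals are log2 of the processed Cy3 intensity relative to the 75th percentile of the array, so a signal of 0 is that percentile. Per array, 59.3% to 61.3% of spots stood well above background, with 0 saturated. All 7 melanocyte lineage markers examined, among them Dct, Mlana and Sox10, were well above background on all 4 arrays, with signals from 1.90 to 8.89. Of the markers of other cells, 3 of 5 for leukocytes, 2 of 4 for fibroblasts, 2 of 4 for epithelium and 1 of 3 for endothelium were well above background on all arrays. Apart from those for leukocytes, where the brightest probe of Itgam lay between 3.22 and 3.44, none of these exceeded -3.47. The defining markers Ptprc, Epcam, Col3a1, Dcn, Krt8, Cdh5 and Kdr were not well above background on any array. The spots of the 16 probes lay in rows 25 to 332, and 0 were marked as outliers.

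The largest difference among the 10 genes was that of Adm between the culture sets. Adm encodes adrenomedullin, a secreted peptide that dilates vessels. Its probe (A_51_P265571, NM_009627) had a processed intensity of 6.33 in control and 6.35 in Cdh1 cells of set 1, and of 169.6 in control and 139.2 in Cdh1 cells of set 2. Both arrays of set 1 were thus not well above background, both arrays of set 2 were, and the sets did not overlap. On the log2 scale the signal was -6.50 ± 0.01 in set 1 and -2.01 ± 0.19 in set 2 (SD of the control and Cdh1 arrays, n = 2). For set 1 the lowest signal at which any probe of the array was well above background was taken. On this scale Adm was then at least 14.4-fold higher in set 2. Of 261 probes that cleared background throughout set 2 and on neither array of set 1, that of Adm had the highest such bound, and the next was 11.1-fold. The fit across all probes gave an adjusted p of 0.0062 (limma, Benjamini-Hochberg, 32955 probes, n = 2 arrays per set). With the treatment as a block it was 0.0329 (limma). The arrays of a set are a control and a Cdh1 culture, so these p-values do not measure the spread between independent culture sets. The probe entered that fit only through set 2, where it was high, and without the filter on dim probes the adjusted p was 0.0743, so the call is not independent of the filter. The call was also lost without control set 1 (limma, adjusted p 0.0619) and without Cdh1 set 1 (0.0543). Because both signals of set 1 were not well above background, the fitted log2 difference is not a measured size. The bound holds for this scale and that lowest signal. With normexp, an offset of 50 and quantile normalization, the log2 difference was 1.70.

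**Figure D1:**
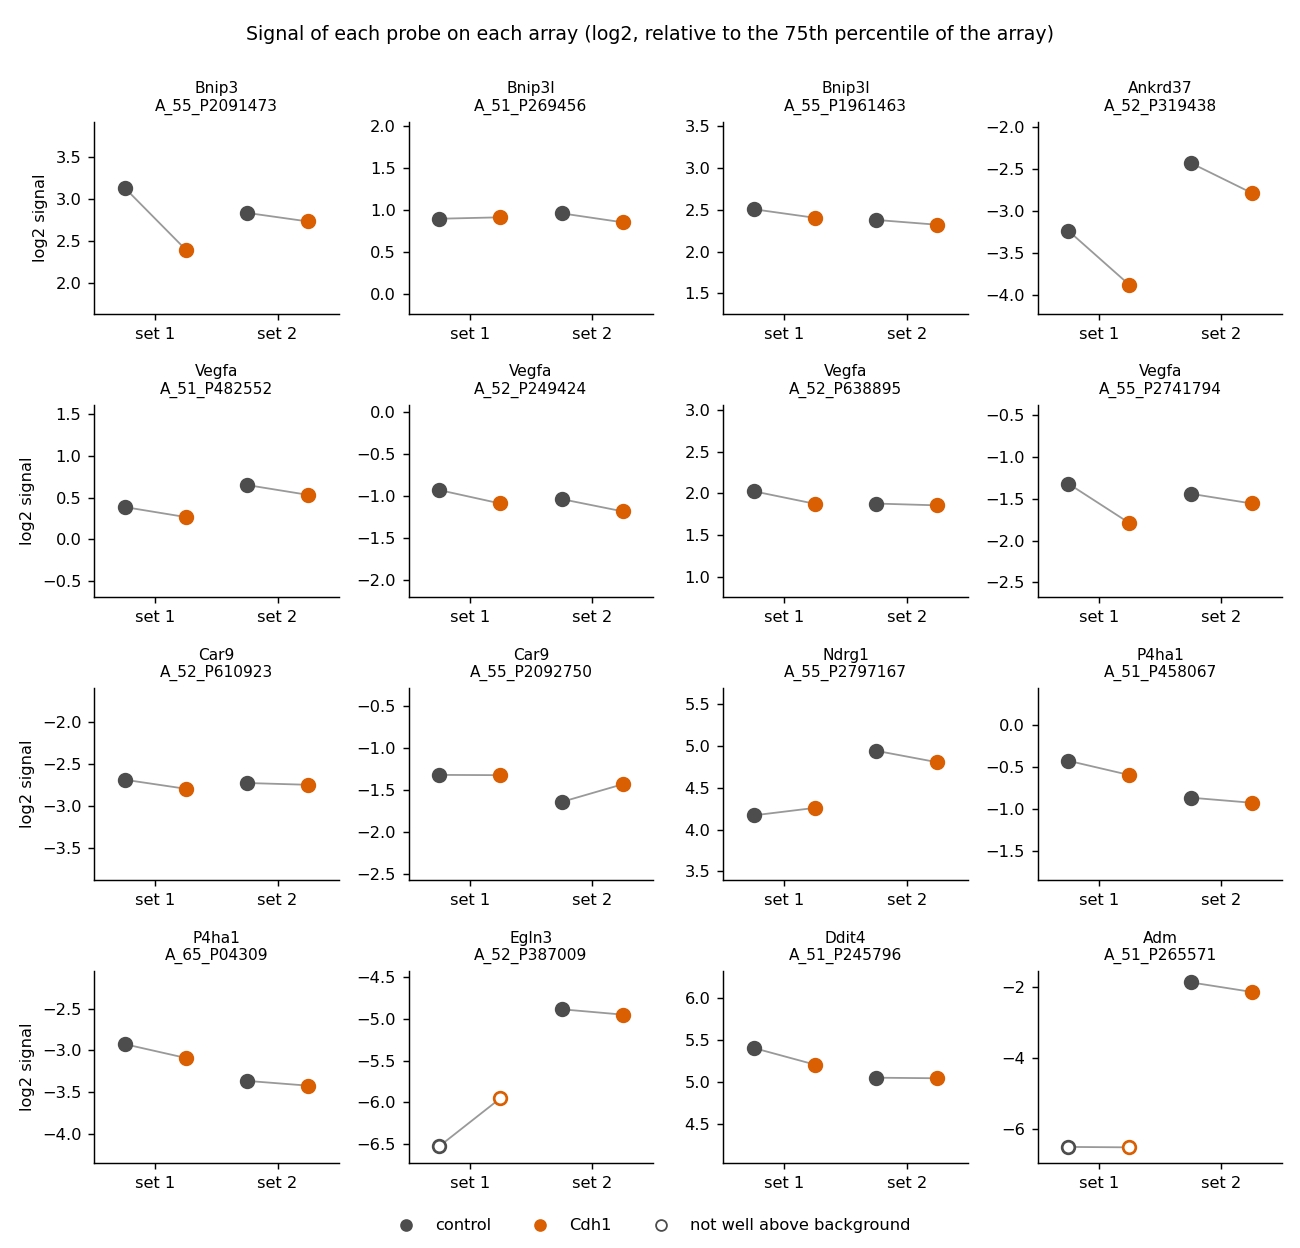
Signal of each of the 16 probes on each of the 4 arrays (log2, relative to the 75th percentile of the array); each panel is 1 probe, grey points are control, orange points are Cdh1, open points are not well above background, and lines join the cultures of a set. Panels span the same range of log2 signal except that of Adm, whose axis is wider. Adm lies at -6.49 and -6.50 in set 1 and at -1.88 and -2.15 in set 2, and Bnip3 is lowest on the Cdh1 array of set 1.

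The upstream sequence of Adm is shown with those of Bnip3 and Ankrd37, the genes with the largest Cdh1 differences, because hypoxia response elements have the core ACGTG or GCGTG. Each line gives the 250 bases before the annotated start, from RefSeq on GRCm38.p6, 5′ to 3′ on the strand of the gene, with every match to either core on either strand in capitals. They are chr7:110627407-110627656 on the plus strand for Adm, chr7:138909507-138909756 on the minus strand for Bnip3 and chr8:45999851-46000100 on the minus strand for Ankrd37.
Adm: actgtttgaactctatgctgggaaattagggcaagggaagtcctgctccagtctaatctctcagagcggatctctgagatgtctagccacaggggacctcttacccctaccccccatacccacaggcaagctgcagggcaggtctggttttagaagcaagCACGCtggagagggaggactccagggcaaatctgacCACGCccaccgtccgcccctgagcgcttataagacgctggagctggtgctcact
Bnip3: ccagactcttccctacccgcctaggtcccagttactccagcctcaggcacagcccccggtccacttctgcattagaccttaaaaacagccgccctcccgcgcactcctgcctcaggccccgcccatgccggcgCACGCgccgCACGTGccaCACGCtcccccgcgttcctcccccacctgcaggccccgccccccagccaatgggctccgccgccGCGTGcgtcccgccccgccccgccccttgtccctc
Ankrd37: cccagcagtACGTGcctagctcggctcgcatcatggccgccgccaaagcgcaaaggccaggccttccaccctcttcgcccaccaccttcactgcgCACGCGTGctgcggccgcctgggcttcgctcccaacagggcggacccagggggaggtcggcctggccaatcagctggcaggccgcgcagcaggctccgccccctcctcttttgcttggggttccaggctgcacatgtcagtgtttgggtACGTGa
The window of Adm held 2 matches, both to GCGTG on the opposite strand, that of Bnip3 5 and that of Ankrd37 4. A match on one strand can overlap one on the other, as in cacgtg of Bnip3 and cacgcgtg of Ankrd37, and both are then counted. Windows were found for 8 of the 10 genes, with 2 for Vegfa, and not for Bnip3l and Ndrg1. Of these 9 windows 8 held at least 1 match, against 38.6% of all 32851 windows and 63.8% of the 9178 windows with at least 60% G and C. The window without a match was one of Vegfa (chr17:46032378-46032627, minus strand). The other of Vegfa (chr17:46025164-46025413), with 2 matches, lies downstream of that window on the strand of the gene. The windows of Adm, Bnip3 and Ankrd37 had 56.8%, 72.4% and 67.6% G and C. These matches are letters in a window and not measured binding sites.

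Egln3, the oxygen-dependent prolyl hydroxylase that HIF itself induces, was the other gene detected in set 2 alone. Its signals (A_52_P387009) were -6.52 in control and -5.95 in Cdh1 cells of set 1, neither well above background, and -4.89 and -4.95 in set 2. The sets did not overlap, and Egln3 was at least 1.91-fold higher in set 2 on the same scale and by the same lowest signal. The fit gave an adjusted p of 0.0364 (limma), of 0.0634 with the treatment as a block and of 0.0543 to 0.141 when any one array was left out. Like Adm, it entered the fit only through set 2, where it was high, and without the filter on dim probes the adjusted p was 0.156. Its size, too, is known only as a bound on this scale, and with normexp its log2 difference was 0.26.

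Ndrg1, a stress-responsive gene of differentiation and metastasis suppression, was well above background on every array and also higher in set 2. Its signals (A_55_P2797167, NM_008681) were 4.17 in control and 4.26 in Cdh1 cells of set 1, and 4.94 and 4.80 in set 2, so the sets did not overlap. The difference of 0.66, with an SE of 0.08, was 1.58-fold and passed the test (limma, adjusted p 0.0219), but not with the treatment as a block (0.0576) or with any one array left out (0.0807 to 0.109). It was also lost without the filter on dim probes (0.129).

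Ankrd37, a small ankyrin repeat protein gene and a HIF target, was 1.94-fold higher in set 2. Its signals (A_52_P319438, NM_001039562) were -3.24 in control and -3.88 in Cdh1 cells of set 1, and -2.43 and -2.79 in set 2. The sets did not overlap, but the SD within set 1 was 0.46 and the difference of 0.95, with an SE of 0.27, did not pass (limma, adjusted p 0.095). With the treatment as a block it did (limma, adjusted p 0.0483), as with a trend and robust prior (0.012). It also passed with normexp (0.0195), where the difference was 0.53. It did not with the authors' table (0.0859), median centring (0.0731) or quantile scaling (0.111). Nor did it without the filter on dim probes (0.279) or with signal above background asked for on every array (0.0795).

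The other 6 genes did not pass this test. P4ha1, the catalytic subunit of collagen prolyl 4-hydroxylase, was 1.31-fold higher in set 1 by each of its 2 probes, which match different transcripts and lie in rows 25 and 332 (limma, adjusted p 0.0572 for A_65_P04309 and 0.0591 for A_51_P458067). Its probe A_51_P458067 read -0.42 and -0.59 in set 1 and -0.86 and -0.92 in set 2, without overlap. It passed with the stricter filter that asks for a signal above background on every array (limma, adjusted p 0.0489). It also passed with normexp (0.0067) and with a trend and robust prior (0.00205). It did not with the treatment as a block (0.0744), the authors' table (0.0601), quantile scaling (0.0618) or median centring (0.0833). Nor did it without the filter on dim probes (0.236). Ddit4, an inhibitor of mTORC1, read 5.41 and 5.21 in set 1 and 5.05 and 5.045 in set 2. Its difference was -0.26 (limma, adjusted p 0.1285). It passed with a trend and robust prior (limma, adjusted p 0.00697) and with no other alternative that kept every array (0.0645 to 0.37). The 4 probes of Vegfa, the angiogenic growth factor, differed between the sets by -0.10 to 0.26 and those of Bnip3l, a mitophagy receptor, by -0.11 and 0.00. Car9, a membrane carbonic anhydrase, differed by -0.22 and 0.00, and Bnip3 by 0.02 with an SE of 0.27.

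Over all 10 genes, with the brightest probe of each, 3 were called higher and 0 lower in set 2. On the whole array 19.0% of 14648 genes were called, 7.53% as higher and 11.5% as lower in set 2. Counted by probe, 3 of the 16 were called, against 15.5% of the array, or 6.82% as higher and 8.64% as lower. With the treatment as a block 2 of the 16 were called, those of Adm and Ankrd37, against 6.57%. Adm and Egln3 passed the filter on dim probes only through set 2, where they were high, so the count of 3 is no measure of the group. The median difference of the 10 genes was -0.03, the same as the -0.03 of all genes tested, and 5 genes were higher and 5 lower. Of the 16 probes 10 had sets that did not overlap, against 67.6% of all probes tested, and of the 10 genes 8, against 73.0%, so these shares are near the background. The genes lay on both sides of 0, with Adm, Egln3, Ankrd37, Ndrg1 and Bnip3 above it and P4ha1, Ddit4, Car9, Bnip3l and Vegfa below it, although Vegfa was at 0.03 as the mean of its probes. Markers also differed between the sets. Tyr, the rate-limiting enzyme of melanin synthesis, read 3.82 and 3.66 in set 1 and 1.90 and 2.04 in set 2. It differed most of the 7 melanocyte markers. Tyrp1, Dct, Pmel, Mlana and Mitf were lower in set 2 by less, Dct reading 8.89 and 8.86 in set 1 and 8.73 and 8.78 in set 2. Sox10 was higher in set 2, at 5.31 and 5.29 against 5.12 and 5.07 in set 1. The summed linear signal of the 7 melanocyte markers was 1516 to 1549 times the 75th percentile in set 1 and 1318 to 1322 times in set 2, and that of the 4 fibroblast markers was 0.137 to 0.146 in set 1 and 0.0811 to 0.0961 in set 2. For leukocytes the sums were 11.81 to 11.96 and 10.26 to 11.65, for epithelium 0.0857 to 0.0867 and 0.0841 to 0.0848, and for endothelium 0.0829 to 0.0918 and 0.0719 to 0.0994. Their part in the differences of these genes was not tested. In bulk RNA, fewer cells with a transcript and less of it per cell cannot be told apart.

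**Figure D2:**
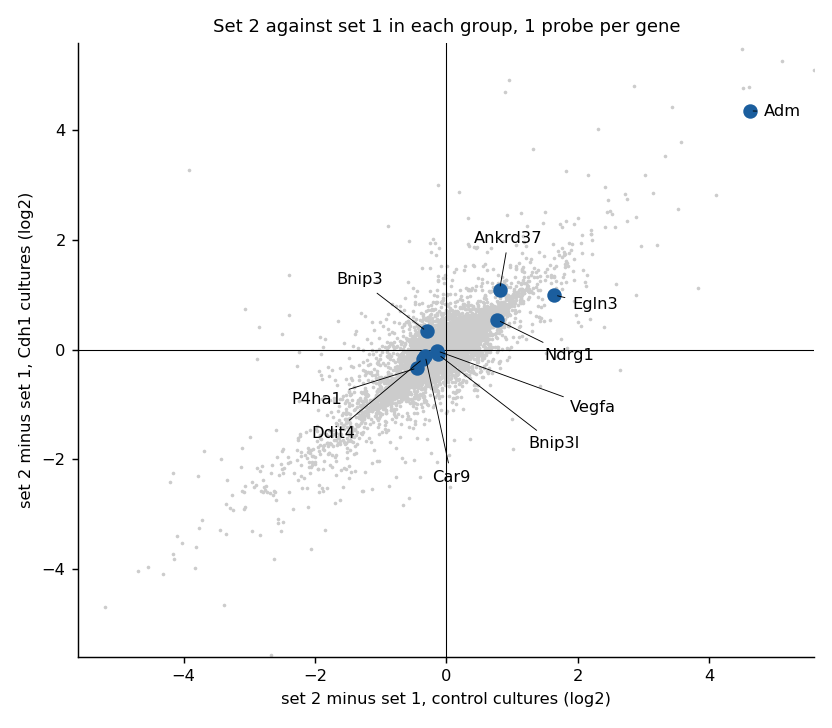
Set 2 minus set 1 (log2) in the control cultures on the horizontal axis and in the Cdh1 cultures on the vertical axis, 1 point per gene for 14648 genes in grey, with the 10 genes in blue; 3 genes lie outside the axes. Adm and Egln3 are drawn at differences from set 1 signals that were not well above background, so their places are not measured sizes. On this scale their bounds are 14.4-fold and 1.91-fold. By the brightest probe of each gene, Bnip3 is the one gene of the 10 with opposite directions, at -0.30 and 0.34.

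Differences between Cdh1 and control cultures were smaller. The largest within a set was that of Bnip3, a mitophagy receptor of the outer mitochondrial membrane. Its signals (A_55_P2091473, NM_009760) were 3.14 in control and 2.40 in Cdh1 cells of set 1, and 2.83 and 2.73 in set 2. Both Cdh1 arrays lay below both control arrays, but the Cdh1 culture had 59.9% of the control signal in set 1 and 93.1% in set 2. The group means were 2.98 ± 0.21 in control and 2.56 ± 0.24 in Cdh1 cells (SD, n = 2). Of 14454 genes, 114 had a lower difference than Bnip3 in set 1 and 2491 had in set 2. Ankrd37 was next, with the Cdh1 culture at 63.8% of control in set 1 and 78.0% in set 2. Its groups overlapped, since both values of set 2 lay above both of set 1, and the mean difference of -0.50 ran from -1.05 without Cdh1 set 2 to 0.05 without Cdh1 set 1. In set 2 its difference was the lowest of the 8 genes that could be compared in both sets, and 326 of all genes had a lower one. The genes were chosen with these differences known, so their places among all genes are a description and no evidence.

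The 4 probes of Vegfa were each lower with Cdh1 in both sets, by amounts that varied with the probe. A_55_P2741794 gave -0.47 in set 1 and -0.12 in set 2, whereas A_52_P638895, the brightest, gave -0.15 and -0.02. A_52_P249424, which matches another transcript, gave -0.16 and -0.15, and A_51_P482552 gave -0.12 in both sets. Of the 4 probes 3 had both Cdh1 arrays below both control arrays, the exception being A_51_P482552, for which set 2 lay above set 1. These probes belong to the same gene, were read in the same RNA samples and are not replicates.

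P4ha1 was lower with Cdh1 by nearly the same amount on both probes, at -0.17 in set 1 and -0.06 in set 2. Ddit4 was lower by -0.20 and -0.01. The 2 probes of Bnip3l disagreed in set 1, at -0.10 for the brighter (A_55_P1961463) and 0.02 for the dimmer, and both were below 0 in set 2, at -0.06 and -0.11. Those of Car9 also disagreed: the brighter (A_55_P2092750) gave 0.00 and 0.21 and the dimmer (A_52_P610923) -0.11 and -0.02. Ndrg1 changed sides, with 0.09 in set 1 and -0.14 in set 2. Adm and Egln3 could be compared in set 2 alone, where their differences were -0.27 and -0.06.

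With the brightest probe of each of the 8 genes well above background on both arrays of a treatment group, 6 were lower with Cdh1 in both sets and 0 were higher in both. Of all 14454 genes 31.6% were lower in both sets. The median of the 8 genes was -0.16 in set 1 and -0.06 in set 2, against -0.02 and -0.01 for all genes. Since the genes were chosen with these values known, nothing is read from these medians or from the counts of genes or probes. Of the 14 probes 11 were lower in both sets, against 27.2% of all probes. In 5 of the 14 both Cdh1 arrays lay below both control arrays, against 18.1% of all probes whose treatment groups did not overlap in either direction. Of the whole array 0 of 32568 probes (0%) were called between Cdh1 and control by limma, with 561 (1.72%) at an unadjusted p under 0.05. With the set as a block 0 were called and 2335 (7.17%) reached that unadjusted level. None of the 8 genes tested in this comparison was therefore called, and Adm and Egln3 were not tested in it. With 2 arrays a side, the smallest p of an exact two-sided permutation test is 0.333.

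**Figure D3:**
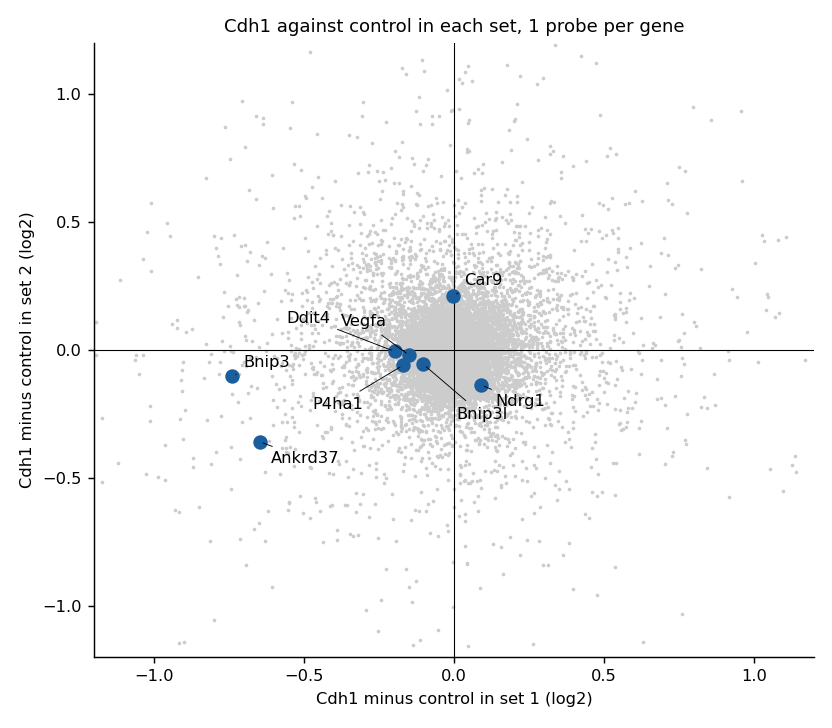
Cdh1 minus control (log2) in set 1 on the horizontal axis and in set 2 on the vertical axis, 1 point per gene for 14454 genes in grey, with the 8 genes measured in at least 1 treatment group in blue; 114 genes lie outside the axes. Bnip3 (-0.74 and -0.10) and Ankrd37 (-0.65 and -0.36) stand apart from the other 6 genes, which lie between -0.20 and 0.21 in both sets.

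The genes that sense oxygen and transmit the signal were read from a list of 16 symbols, of which 13 were tested. Hif1a, the ubiquitous oxygen-regulated alpha subunit, read 3.66 in control and 3.48 in Cdh1 cells of set 1, and 3.43 and 3.41 in set 2. Epas1, the other main alpha subunit, read 0.32, 0.34, -0.04 and 0.07 in the same order. Neither passed the test between the sets (limma, adjusted p 0.2686 and 0.0563). The common partner Arnt did, being 1.27-fold higher in set 1 by its brighter probe, with signals of 1.496 on both arrays of set 1 and of 1.14 and 1.16 in set 2 (limma, adjusted p 0.0322; 0.0737 with the treatment as a block). It was the only one of the 13 called, in a background of 19.0%. Vhl, which recognises hydroxylated HIF, and Egln1, the main oxygen-sensing hydroxylase, differed between the sets by 0.02 and -0.01 and between Cdh1 and control by -0.09 and -0.08 on average. Rbx1, part of the same ubiquitin ligase, had a Cdh1 difference of -0.08 in set 1 and -0.11 in set 2. The list's median Cdh1 difference was -0.02, 5 genes being lower and 2 higher in both sets, and the median between the sets was -0.08.

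Further hypoxia-inducible genes outside glycolysis came from a list of 30, of which 24 were tested. Between the sets 6 were called, all lower in set 2, in a background of 19.0% of all genes called and 11.5% called as lower. Hmox1, which degrades haem, had signals of 5.45 and 5.47 in set 1 and 4.31 and 4.37 in set 2, and was 2.17-fold higher in set 1 (limma, adjusted p 0.0074). Met, the receptor of hepatocyte growth factor, was 3.85-fold higher in set 1 by the brighter of its 2 probes (limma, adjusted p 0.0078). Rora, a nuclear receptor, was 1.65-fold higher there by the brightest of its 3 probes (0.02). Ero1a, an oxidase of the endoplasmic reticulum, was 1.61-fold higher there (0.0248). The list's median was -0.19, against -0.03 for all genes, with 20 genes below 0 and 4 above. Of all 14648 genes 8010 were below 0 and 6638 above. The list was written with earlier results of these data known, so nothing is read from its median or counts. Slc16a3, the lactate exporter, had a signal 2.97-fold higher in set 2, but did not pass (limma, adjusted p 0.0703).

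Slc16a3 also had the largest Cdh1 difference of that list, with signals of -1.78 in control and -2.80 in Cdh1 cells of set 1 and of -0.61 and -0.83 in set 2, so that it was lower by -1.01 and -0.22. Fam162a, a mitochondrial HIF target, was lower by -0.41 and -0.06. Ppfia4 was higher by 0.46 and 0.13, at signals between -4.71 and -4.26. Of the 24 genes 12 were lower and 5 higher in both sets, with a median of -0.10 in set 1 and -0.04 in set 2. Of all 14454 genes 31.6% were lower and 2848 were higher in both sets. The differences of Slc16a3, Fam162a and Ppfia4 were larger in set 1, like those of Bnip3 and Ankrd37. The share of all genes with that order was not counted. Among 22 genes of glycolysis and glucose supply the medians were -0.15 and -0.04, with 15 lower and 0 higher in both sets beside that 31.6%. Between the sets 4 of the 22 were called (limma), beside 19.0% of all genes. Slc2a3 and Hk1 were higher and Aldoc and Eno2 lower in set 2, and these 4 were named after their values were seen. With the treatment as a block Slc2a3 and Hk1 were still called (limma, adjusted p 0.0445 each), and Aldoc (0.0894) and Eno2 (0.069) were not.

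**Figure D4:**
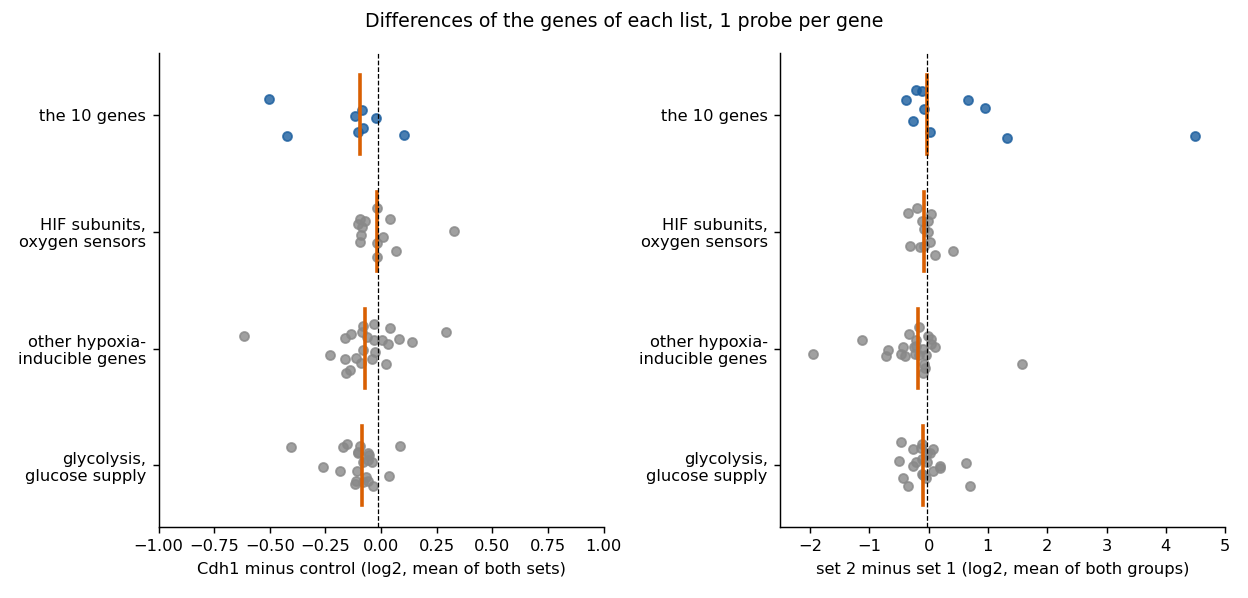
Cdh1 minus control, the mean of both sets (left), and set 2 minus set 1, the mean of both groups (right), for the genes of 4 lists on a log2 scale, 1 point per gene; orange bars are list medians and the dashed line is the median of all genes tested. On the left the medians run from -0.09 to -0.02, and on the right they run from -0.19 to -0.03; the points of Adm and Egln3 there rest on set 1 signals not well above background and are not measured sizes.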

How the data were processed

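Total RNA of 4 B16-F10 cultures was labelled with Cy3 from 100 ng each and read on 4 one-colour arrays on 1 slide, scanned on the same day. The software was Agilent Feature Extraction 12.0.3.1, named in the file headers and the submitters' processing notes. The deposited processed intensity is the background-subtracted, detrended Cy3 signal on a linear scale, not normalized between arrays by the authors. The authors' value table holds the same intensities times 1 factor per array (0.873 to 0.930).

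Signals were log2 intensity minus the array's 75th percentile, outlier spots being left out. Accessions were named through RefSeq genes of GRCm38.p6 (33767 of 56605 probes matched). The header names mm9, so no probe coordinates are given. A probe was tested if both arrays of 1 of the groups compared (treatments or sets) had it well above background. The program limma (3.58.1, R 4.3.3; lmFit, eBayes, Benjamini-Hochberg, threshold 0.05) then compared Cdh1 with control, and set 2 with set 1, over all such probes. It was tested on simulated data. There it called 6% of changes of 1 log2 unit between Cdh1 and control, and 90% between the sets. The absence of calls between Cdh1 and control is therefore no evidence against changes of that size or smaller. A gene was represented by its brightest probe.

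The sets pair the cultures, per the design text, and deviations of same-numbered arrays correlated at 0.744 over 31155 probes. The numbers of arrays limit precision. In the comparison of the sets, without a block, the spread is that between the control and Cdh1 cultures of a set, which are not replicates. Each side is 1 culture set, so those p-values do not measure the spread between independent culture sets. In the comparison of Cdh1 with control, without a block, the spread is that between the 2 sets. Alternatives were normexp on median spot and background signals (the files used hold no mean spot signal) with quantile normalization, quantile scaling alone, the authors' table, centring on medians, other filters, blocks, a trend and robust prior, the mean of probes, and leaving out arrays or edge rows. The genes, lists and tests were chosen with earlier results of these data known. From the lists of oxygen sensors and of hypoxia-inducible genes the text names up to 4 genes called between the sets and up to 3 with the largest Cdh1 difference in 1 direction, besides Hif1a, Epas1, Arnt, Vhl and Egln1. The rule did not cover the glycolysis list. Python 3.11.15, pandas 2.3.3 and matplotlib 3.10.9 were used.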

Additional observations from a re-analysis of the deposited data

Results flagged for a closer look

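Bnip3 differed between the sets in opposite directions in the 2 groups. Set 2 minus set 1 was -0.30 in the control cultures and 0.34 in the Cdh1 cultures. Dimmer probes of other genes also changed direction, by less. In the same order they were A_55_P2741794 of Vegfa (-0.12 and 0.23), A_51_P269456 of Bnip3l (0.06 and -0.06) and A_52_P610923 of Car9 (-0.04 and 0.05). Each value rests on 1 array per set, and the difference between the groups was not tested.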

How the results depend on the processing

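No probe was called between Cdh1 and control under any alternative run, including the set as a replicate block (0 probes) and each array left out (0 to 0), and that block changed no other call. The 5095 probes called between the sets became 2165 with the treatment as a block, 11194 with the trend and robust prior, 9032 with normexp and 0 without the filter on dim probes, and 0 to 409 with 1 array left out, fits that leave fewer samples. Of the 10 genes, the 3 called became 6 with the trend and robust prior, 5 with normexp, 0 without the filter, and 0 to 1 with 1 array left out. The median Cdh1 difference, -0.09, ranged from -0.1514 to -0.0142 with 1 array left out and from -0.14 to -0.07 otherwise. The median set difference, -0.03, ranged from -0.16 to 0.19 and from -0.09 to 0.03. The number of genes lower in both sets, 6, ranged from 4 to 7. The set difference of Bnip3, 0.02, ranged from -0.35 to 0.39 with 1 array left out, and was reversed without Cdh1 replicate 1 (-0.35) and without control replicate 2 (-0.03). Where a cause is not named it was not tested. Signal over background limits Adm and Egln3 in set 1 to bounds, which hold for the main scale. With normexp their log2 set differences were 1.70 and 0.26.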
